A study of Lotus japonicus with 36 samples.

Results

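In root nodules of Lotus japonicus, 79 loci of the 41299 in the deposited table had their highest transcript levels late after nitrate was taken away, above untreated nodules and above every day of nitrate supply. They were selected on measured values, not on function. Each locus was represented by its transcript model with the highest mean FPKM (fragments per kilobase of model, scaled to library size) over all 36 libraries, and v was the mean FPKM of a group plus 1. A locus was a member when its mean FPKM on the fifth day of withdrawal was at least 5 and its v on that day was at least 2 times the highest v of the untreated group and the 6 nitrate days. All loci that met the rule are members, since a cap of 300 was not reached.

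The nodules came from the ecotype MG-20, the 1 genotype of all groups, and carried no transgene or mutation per the labels. T0 stands for untreated nodules 4 weeks after inoculation, T1 to T6 for successive days (1 to 6) of 10 mM KNO3, and R1 to R5 for successive days (1 to 5) without nitrate again, each with 3 libraries that the series calls biological replicates. The labels used here state neither which nitrate day the removal followed nor how many plants made up a library. The 12 groups hold no untreated nodules older than T0, so withdrawal day and nodule age cannot be told apart. Whole nodules were measured, so a lower level from fewer cells of a type and one from less RNA per cell cannot be told apart.

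A legume nodule houses rhizobia in infected cells, where the bacteria reduce dinitrogen to ammonium in exchange for plant carbon under low free oxygen. Nitrate is an alternative nitrogen source that suppresses nodule formation, lowers nitrogen fixation in formed nodules and hastens their senescence, and removing it can let fixation return. The members are transcripts whose level after removal went past the level of the untreated nodule. The files do not pair the IDs with gene names or functions, and 0 loci matched the RefSeq gene table used here, which is of another assembly. For that reason the members are given by ID and by profile, and the labelled tissue could not be checked against its markers.

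Library totals ran from 34194054 to 45795038 estimated counts, TMM scaling factors from 0.81 to 1.21 and the sums of FPKM values over models from 1001182 to 1356858. The rule used the libraries of R5 and of T0 to T6, so their values are descriptions with no test. The R1 to R4 libraries entered the rule only through the choice of 1 model per locus, and 76 members are the sole model at theirs. Every test compares these groups with each other, with edgeR's quasi-likelihood test over 45674 models in the 12 libraries. Models with a Benjamini-Hochberg adjusted p under 0.05 and a change of at least 2-fold were called. The R4 libraries are separate from those of the rule, but R4 is the day before R5.

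In R5 the members' mean FPKM ran from 5.02 to 710 with a median of 18.3. It was at least 10 in 54 members, at least 50 in 23 and at least 100 in 11. The ratio of v in R5 to the highest v before withdrawal ran from 2.02 to 11.1 with a median of 2.42, and it was at least 3 in 23 members and at least 5 in 14. Most members therefore sat close above the threshold. Every R5 library was above every one of the 21 libraries of T0 to T6 in 52 of the 79 members, where 1.99% of all loci have this order. The rule used these libraries, and nothing is read from that count.

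The median FPKM over the 79 members followed a valley and a late climb. It was 3.98 in T0, 2.74 in T1, 1.5 in T2, 1.5 in T3, 0.717 in T4, 1.61 in T5 and 1.96 in T6. After removal it went from 1.91 in R1 through 2.73 in R2, 6.58 in R3 and 16.3 in R4 to 18.3 in R5. Nitrate day 4 was the lowest of the 7 groups T0 to T6 in 52 members, and T0 was the highest of them in 38, T6 in 20 and T1 in 11. The members thus shared the end of the course but not the level from which they came.

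**Figure D1:**
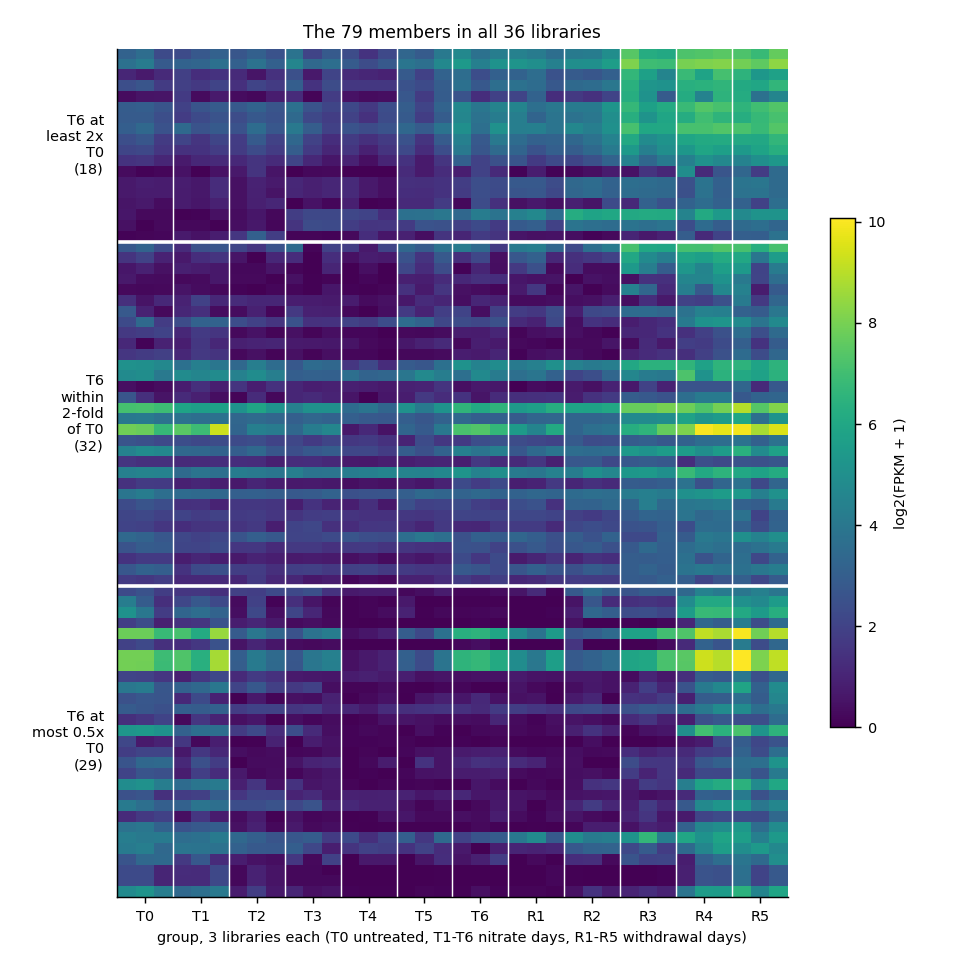
Level of each of the 79 members (rows) in each of the 36 libraries (columns, 3 per group), as log2 of FPKM plus 1 on the colour scale. Rows are in 3 blocks by their v in T6 against T0 (18, 32 and 29 members), and nearly all rows are brightest in R4 and R5 whatever their level under nitrate.

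R5 was the highest of the 12 groups in 45 members and R4 in 29. R3 was the highest in the other 5, which are Lj4g3v0166190.1, Lj4g3v1259070.1, Lj1g3v2482450.1, Lj1g3v1183610.1 and Lj0g3v0061149.1, named after their values were seen. On the log2(FPKM + 1) scale, the largest of the 4 daily differences between withdrawal groups was that from R3 to R4 in 32 members, from R2 to R3 in 31, from R1 to R2 in 8 and from R4 to R5 in 8. The median difference of R5 minus R4 on that scale was 0.15, with a range from -1.33 to 1.75. The climb was thus mostly complete by R4 for many members. It was less so in the T6-low set defined below, where the median difference was 0.67. In the T6-high and T6-even sets that median was -0.08 and -0.12.

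None of the 79 members had a v in R1 that was at least 2 times its highest v before withdrawal, where 0.046% of all loci did. In R2, 5 members did (0.143% of all loci), in R3 27 did (0.3%) and in R4 45 did (0.492%). These shares set R1 to R4 libraries against the T libraries that the rule used. The 5 members already past that mark in R2 were Lj2g3v2002260.1, Lj4g3v1273940.1, Lj4g3v0166190.1, Lj4g3v1259070.1 and Lj1g3v2482450.1, named after their values were seen. Their v in R2 was 2.25, 2.22, 4.56, 2.63 and 2.20 times the highest v before withdrawal, in that order.

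The members were divided by their level on nitrate day 6 against the untreated nodule, after their values were seen and from the T0 and T6 libraries alone. The T6-high set holds 18 members with a v in T6 at least 2 times that in T0. The T6-low set holds 29 members with a v in T6 at most 0.5 times that in T0, and the T6-even set holds the 32 between. R1 to R4 values had no part in this division.

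In the T6-high set the median FPKM was 1.32 in T0, 8.72 in T6, 7.40 in R1, 11.5 in R2, then 41 in R3, 55.4 in R4 and 47.7 in R5. The difference between T0 and T6 is what defines this set. Here the median over members of the ratio of v in R5 to v in T0 was 15.4, and to v in T6 5.21. By library, their median was 65.9, 31.1 and 26.4 FPKM in R3, and 49.2, 57.4 and 61.0 in R4. All R3 libraries were above the R2 libraries, at 9.41, 10.7 and 12.8. R3 replicate 1 was the highest of its day and lay above all R4 libraries. The largest daily difference led into R3 in 12 of the 18. Of the 18, 11 belong to 1 group of linked members (neighbouring IDs or near copies), the repeated runs given below. The members of this set are therefore not separate observations.

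In the T6-low set the median FPKM was 8.09 in T0, 0.15 in T4, 0.39 in T6, 0.207 in R1, 0.643 in R2, 1.54 in R3, and then 15.2 in R4 and 18.3 in R5. The median over members of the ratio of v in R5 to v in T0 was 2.27, and to v in T6 8.36, and that R5 exceeds both is fixed by the rule. The median was thus low from T4 to R2, but not every member followed it. Lj0g3v0309759.1 had a mean of 31.2 FPKM in R1, and Lj1g3v1183610.1 had one of 16.2. By library the median was 1.37, 1.93 and 1.22 FPKM in R3, and 4.89, 15.9 and 17.0 in R4. The R4 libraries were all above the R3 libraries, and R4 replicate 1 was far below the others. The largest daily difference led into R4 in 18 of the 29 and into R5 in 6.

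In the T6-even set the median FPKM was 2.95 in T0, 0.858 in T4, 3.19 in T6, 3.09 in R1, 3.25 in R2, then 7.5 in R3, 15.3 in R4 and 10.7 in R5. The largest daily difference led into R3 in 15 of the 32 and into R4 in 12. R4 was the highest group in 18 of these members and R5 in 12, whereas R5 was the highest in 26 of the 29 T6-low members.

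**Figure D2:**
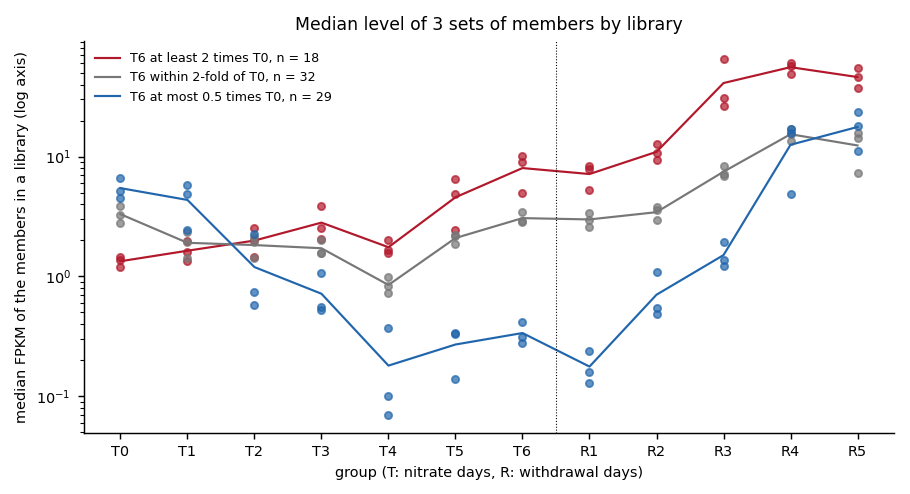
Median FPKM (log axis) of the members of each set in each library (points), with lines through the mean of the 3 library medians of a group. The T6-low set lay at 0.13 to 0.24 FPKM in the R1 libraries and at 4.89 to 17.0 in the R4 libraries, and the T6-high set was already at 26.4 to 65.9 in the R3 libraries.

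The comparison of R4 with R1 spans the climb with libraries whose levels set no threshold of the rule. It is not independent of the rule, since the members' median was 1.96 FPKM in T6 and 1.91 in R1, and 16.3 in R4 and 18.3 in R5. A choice by R5 over T6 thus made a rise here likely, and the shares of all models come from models not chosen that way. All 79 members passed the filter on low counts and all 79 were higher in R4 by the fitted log2 fold change, from 0.34 to 14.95. By edgeR 75 rose, where 12.6% of all models were called higher, 65 rose more than 4-fold (5.28% of all models) and 50 more than 8-fold (2.75%). None fell, where 8.86% of all models were called lower. No member was lower at an unadjusted p under 0.05, and DESeq2 also called 75 higher and none lower. No share of all models is given for either of these. The median log2 fold change was 3.29 over the members and -0.01 over all models. Every R4 library was above every R1 library in 73 members, and in 25.3% of all models.

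All 29 members of the T6-low set rose between R1 and R4, with a median log2 fold change of 4.68. Of the T6-even set 31 of 32 rose (median 2.63), and of the T6-high set 15 of 18 (median 3.04). The selection required a wider margin of the T6-low set, so nothing is read from its higher median. The 4 members that were not called, named after their values were seen, were Lj4g3v1259070.1 at 0.34 ± 0.33 (SE, edgeR adjusted p = 0.441), Lj2g3v2002260.1 at 0.64 ± 0.30 (adjusted p = 0.103), its near copy Lj4g3v1273940.1 at 0.74 ± 0.30 (adjusted p = 0.0656) and Lj1g3v4590710.1 at 0.79 ± 0.40 (adjusted p = 0.14) on the log2 scale. The first 3 had means of 5.48, 5.30 and 4.81 FPKM in R1, above each of their means under nitrate. Lj2g3v2002260.1 was at 5.93, 5.95 and 4.03 FPKM in R1, at 9.61, 10.7 and 7.91 in R2, at 11.6, 10.8 and 9.85 in R3, at 4.62, 13.4 and 7.56 in R4 and at 13.7, 14.4 and 10.3 in R5. Its R4 libraries spanned the range from R1 to R5. Its v in R1 was 1.36 times its highest v before withdrawal, second among members to Lj1g3v2373520.1 at 1.45.

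Lj0g3v0219089.1, a model of 1795 bp, had the largest fitted change from R1 to R4. It was at 0 FPKM in each R1 library, at 0.43, 5.54 and 1.39 in R2, at 1.61, 1.89 and 1.60 in R3, at 28.1, 67.2 and 66.3 in R4 and at 32.0, 26.6 and 45.1 in R5. It had been at 18.3, 6.64 and 1.57 FPKM in T0 and at 0.04 or less in each T6 library. All R4 libraries were above all libraries of R1 to R3, and the R2 libraries were spread over a wide range. Because no count fell in R1, its fitted log2 fold change of 14.95 is no bound. Against a floor of 3 counts per library it was at least 1238-fold higher in R4 (edgeR adjusted p = 6.75e-05). The step from R3 to R4 alone was 5.07 ± 0.75 on the log2 scale (adjusted p = 0.00218). Floors and counting intervals cover counting error only.

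Lj3g3v1855670.1 (1643 bp) had nearly the same course. It was at 0, 0 and 0.08 FPKM in R1, at 0.80, 9.35 and 7.14 in R2, at 4.02, 4.30 and 3.25 in R3, at 44.6, 108 and 106 in R4 and at 66.2, 44.4 and 77.8 in R5. Its R1 to R4 difference was 11.57 ± 1.1 on the log2 scale (edgeR adjusted p = 2.12e-05, 2.23e-23 to 0.000329 over its alternatives). That size rests on 1 library, since all 5 of its R1 counts were in R1 replicate 3, and without that library the fitted value, which is then no bound, was 15.53. In T0 both members ranged widely and in the same order of libraries, with 33.7, 14.8 and 2.47 FPKM for Lj3g3v1855670.1. They carried no copy or neighbour link.

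Another 3 members of the T6-low set had no count in R1 after rounding and are bounded the same way. Lj3g3v1487200.1 was at least 106-fold higher in R4, Lj4g3v1037630.1 at least 90.7-fold and Lj5g3v1793490.1 at least 17.0-fold. Lj1g3v1815400.1 had 1 count in R1 and 91 in R4, a ratio of 88.6 with a 95% counting interval from 15.5 to 3536. These 4 were named after their values were seen. With members at 0 set to their bounds, the median over the 79 stayed at 3.29.

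The comparison of R2 with R1 asked what moved on the second day. Of the members, 10 rose and 4 fell, where 3.65% of all models were called higher and 2.51% lower, and the median log2 fold change was 0.23 (0.22 with bounds). Of the 10 that rose, 8 were in the T6-low set. These counts depended on single libraries, since 6 calls in all were left without R1 replicate 1, 5 without R1 replicate 3, 8 without R2 replicate 1, 7 without R2 replicate 2 and 7 without R2 replicate 3, all higher. The 4 falls were thus called only in fits that kept those 5 libraries.

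Lj4g3v0166190.1 (1281 bp) had the highest ratio of T6 to T0 among members, 11.0 on the v scale, and was among the early risers. It was at 0.52, 0.21 and 0.19 FPKM in T0, at 9.24, 17.7 and 13.3 in T6, at 19.95, 25.1 and 10.7 in R1, at 74.5, 56.9 and 62.6 in R2, at 65.7, 70.3 and 68.4 in R3, at 21.9, 68.9 and 41.5 in R4 and at 26.1, 35.1 and 35.0 in R5. Its plateau was R2 and R3, with no overlap with R1, and its R4 libraries spread over more than that interval. The R2 to R1 difference was 1.64 ± 0.36 on the log2 scale (edgeR adjusted p = 0.0142, 0.000111 to 0.0538 over its alternatives). The R4 to R3 difference was -0.54 ± 0.35 (adjusted p = 0.308).

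Lj1g3v2482450.1 (4020 bp) stepped up on the same day from a low level. It was at 1.27, 1.99 and 0.84 FPKM in R1, at 5.67, 5.79 and 3.57 in R2, at 5.85, 6.63 and 5.88 in R3, at 1.46, 4.39 and 3.48 in R4 and at 4.99, 4.70 and 5.42 in R5. The R2 and R1 libraries did not overlap (log2 fold change 1.70 ± 0.37, edgeR adjusted p = 0.0132, 9.86e-05 to 0.0528 over its alternatives). Both calls were lost without R1 replicate 3, that of Lj4g3v0166190.1 also without R2 replicate 1 and that of Lj1g3v2482450.1 also without R1 replicate 1.

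The 4 members that fell from R1 to R2 were the most abundant members in R5 and are not separate observations. Lj0g3v0309759.1, Lj5g3v1722690.1 and Lj0g3v0112109.1 have models of equal length (902 bp) and correlate with each other at 0.9999 or more over the 36 libraries (Pearson's r of log2(FPKM + 1)), and Lj0g3v0112119.1 (104 bp) is the next ID after the third (the last 2 were named after their values were seen). Reads of near-identical copies can be divided among them, so the level of any single one is uncertain. Lj0g3v0309759.1 was at 242, 240 and 117 FPKM in T0, at 0.36, 0.63 and 0.95 in T4, at 93.6, 103 and 68.2 in T6, at 28.7, 15.3 and 49.7 in R1 and at 6.20, 7.94 and 11.2 in R2. It was then at 58.6, 63.0 and 145 FPKM in R3, at 178, 634 and 510 in R4 and at 1073, 273 and 552 in R5. Its means had 2 low points, T4 and R2, with T6 between them at 88.3 FPKM.

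The R2 to R1 difference of Lj0g3v0309759.1 was -2.04 ± 0.55 on the log2 scale (edgeR adjusted p = 0.0355, 0.0106 to 0.149 over its alternatives). Its R3 to R2 difference was 3.45 ± 0.58 (adjusted p = 0.0121, 3.84e-06 to 0.0919 over its alternatives). That of Lj0g3v0112119.1 was 3.54 ± 0.59 (adjusted p = 0.0116, 2.17e-06 to 0.0874), the largest rise of that step under the rule for naming. Both R3 to R2 calls were lost without R2 replicate 1 or R2 replicate 2, and without R3 replicate 3 the log2 fold changes were 2.80 and 2.89. In R4, Lj0g3v0112119.1 stood at 275, 1005 and 818 FPKM, with replicate 1 lowest as for its 3 partners.

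From R2 to R3, 28 members rose and none fell, where 0.655% of all models were called higher and 0.348% lower. At an unadjusted p under 0.05, 47 members were higher and 1 was lower, and DESeq2 called 36 higher and none lower. The shares of all models above are for edgeR's calls and do not apply to these counts. The median log2 fold change was 1.52 over the members. Of the 28, 15 were in the T6-even set, 8 in the T6-high set and 5 in the T6-low set. Without R2 replicate 1 the count was 9 and without R2 replicate 2 it was 7. The 28 also came from few sources: counted once per group of linked members (neighbouring IDs or near copies), by the most abundant one, 7 of 47 rose.

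From R3 to R4, 35 members rose and none fell, where 5.88% of all models were called higher and 2.34% lower. At an unadjusted p under 0.05, 52 were higher and 2 lower, and DESeq2 called 35 higher and none lower, again without a share of all models to set beside them. Counted once per group of linked members, 29 of 47 rose. The T6-low set held 21 of the 35, with a median log2 fold change of 2.99, beside 12 in the T6-even set (median 0.85) and 2 in the T6-high set (median 0.81). Without R4 replicate 1 the count was 38. Every R4 library was above every R3 library in 49 members, and in 16.7% of all models. Counted by member, more T6-low members were called at R4 and more of the others at R3. Counted once per linked group, by its most abundant member and in the set of that member, every set had more calls at R4. In the order T6-high, T6-even and T6-low, these were 1, 6 and 0 at R3 and 2, 11 and 16 at R4. The 0 depends on this way of counting. None of the 5 T6-low members called at R3 was the most abundant of its linked group. Whether the sets differ was not tested, and the wider margin required of the T6-low set bears on such differences.

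**Figure D3:**
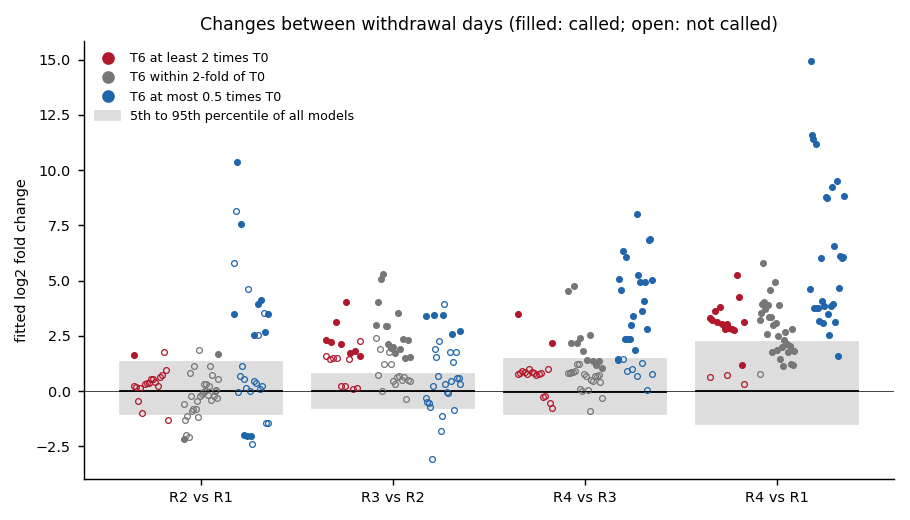
Fitted log2 fold changes of the 79 members (points, filled where called) in the 4 comparisons among R1 to R4, with the sets side by side and the 5th to 95th percentile of all tested models as grey boxes. In R4 vs R1 all points lie above 0, and in R4 vs R3 the T6-low points reach 8.01.

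Lj1g3v0514350.1 (1412 bp) was the clearest case of a late return. It was at 38.3, 42.9 and 34.2 FPKM in T0, at 7.63, 11.4 and 11.4 in T1 and at 0.20 or less in each T6 library, the lowest T6 to T0 ratio of v (0.0284) by the rule for naming. It then stayed at 0.18, 0.11 and 0.25 FPKM in R1, at 0.87, 1.81 and 0.88 in R2 and at 0.09, 0.41 and 0.51 in R3. On the next day it was at 30.8, 130 and 84.8 in R4, and then at 143, 35.95 and 89.3 in R5. The R4 and R3 libraries lay far apart, although R4 replicate 1 was lower than every T0 library. The R4 to R3 difference was 8.01 ± 0.67 on the log2 scale (edgeR adjusted p = 0.000211), and no alternative lost the call.

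Lj4g3v0336910.1 (2623 bp) had the second lowest T6 to T0 ratio, 0.0411, and a like course. It was at 27.2, 35.3 and 18.3 FPKM in T0, at 0.33 or less in each T6 library, at 1.02, 1.48 and 0.97 in R3, at 13.9, 46.2 and 45.2 in R4 and at 85.2, 22.2 and 59.1 in R5. Its neighbour in the order of IDs was also a member. In both Lj1g3v0514350.1 and Lj4g3v0336910.1, R4 replicate 1 and R5 replicate 2 were the lowest libraries of their days.

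**Figure D4:**
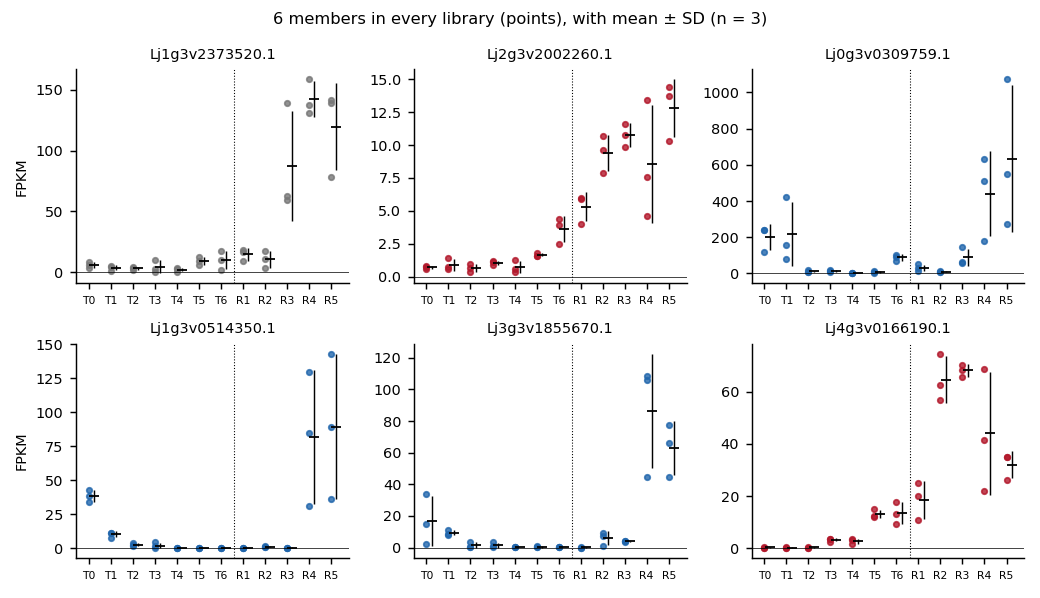
FPKM of 6 members in every library (points), with the mean ± SD of the 3 libraries of a group (black). Lj1g3v0514350.1 and Lj3g3v1855670.1 were near 0 in R1 and stood at 30.8 to 130 and 44.6 to 108 FPKM in R4, and Lj4g3v0166190.1 had its highest means in R2 and R3.

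The members with the highest ratios of v in R5 to the highest v before withdrawal lie side by side in the order of IDs. Lj1g3v2373520.1 (266 bp) had the highest, 11.1, and its neighbour Lj1g3v2373510.1 (205 bp) the next, 8.28. Lj1g3v2373520.1 ranged from 0.10 to 17.3 FPKM over the 21 libraries of T0 to T6. It was at 16.5, 18.7 and 8.90 in R1, at 3.67, 11.3 and 17.3 in R2, at 139, 62.9 and 59.6 in R3, at 137, 131 and 159 in R4 and at 142, 78.4 and 139 in R5. The R3 libraries were all above the R2 libraries, with replicate 1 at the R4 level. Its rise from R2 to R3 was 3.01 ± 0.48 on the log2 scale (edgeR adjusted p = 0.009), and the R4 to R3 difference was 0.82 ± 0.43 (adjusted p = 0.206).

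Lj1g3v2373510.1 was at 1.61, 2.06 and 2.98 FPKM in R2, at 64.6, 27.4 and 18.3 in R3 and at 58.2, 49.9 and 69.4 in R4, a rise of 4.02 ± 0.58 on the log2 scale from R2 to R3 (edgeR adjusted p = 0.00513). Lj1g3v2373470.1 (217 bp), with the second highest T6 to T0 ratio of v (4.30), is the first of the same run. It was at 6.44, 5.56 and 7.54 FPKM in R2, at 101, 51.4 and 22.4 in R3, at 112, 55.7 and 136 in R4 and at 91.0, 39.4 and 53.0 in R5. R3 replicate 1 was the highest R3 library in all 3 of these loci.

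The run from Lj1g3v2373470.1 to Lj1g3v2373540.1 holds 8 consecutive IDs, all members, and a second run of 7 from Lj3g3v1378200.1 to Lj3g3v1378260.1 mirrors it (both singled out after their values were seen). At each of the 7 places the models of both runs have the same length, in order 217, 197, 597, 266, 205, 266 and 137 bp. Counterparts correlated at 0.726 to 0.996 over the 36 libraries, which share groups and library effects, so these values only describe. Between 0% and 30.6% of the 36 estimated counts of each of these 15 loci were whole, so reads can have been divided among models and it is uncertain at which of the runs the transcripts arose. All 15 rose from R1 to R4, with log2 fold changes from 2.77 to 4.05 and edgeR adjusted p of at most 0.00513. From R2 to R3, 12 of the 15 rose, and from R3 to R4 none was called. All 15 log2 fold changes from R3 to R4 were positive, from 0.73 to 0.98, with edgeR adjusted p from 0.0574 to 0.492.

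The change ended at the same place in both runs. The next ID, a model of 725 bp in both, had a mean of 49.7 FPKM in T6 and 45.7 in R4 after the first run, and of 50.5 and 46.6 after the second. The locus just before the first run was at 1.97 FPKM in T6 and 1.15 in R4, and that before the second at 0.527 and 0.22. So the members of both runs climbed together, and the loci directly on either side of them had R4 means below their T6 means. The order is that of the IDs, and no genome coordinates were used.

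**Figure D5:**
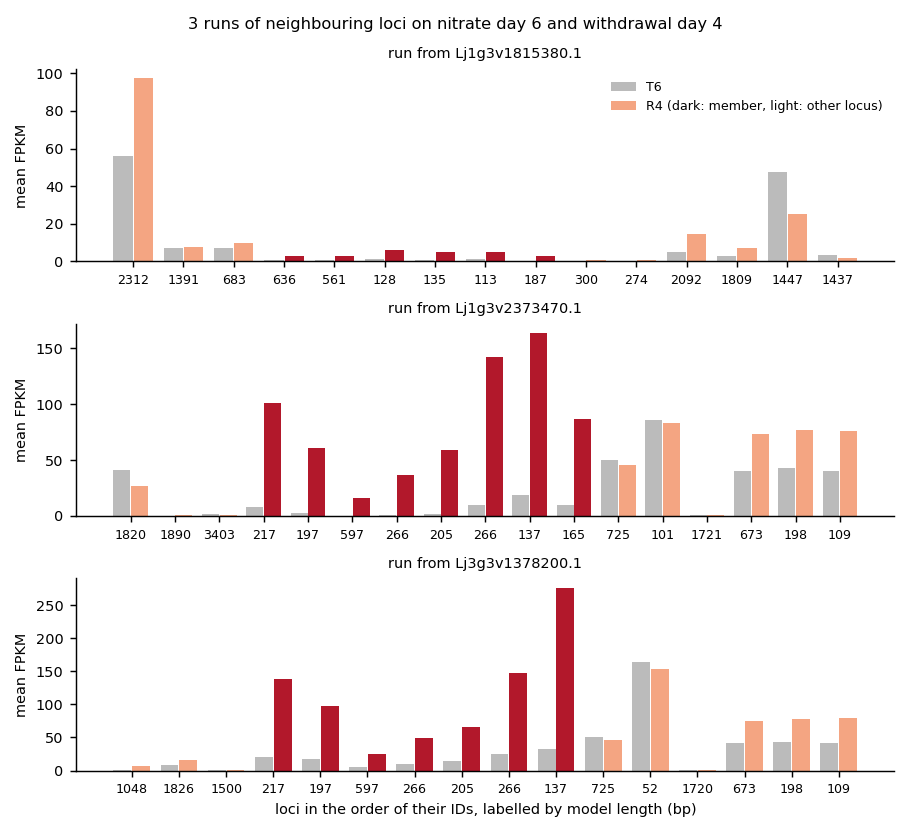
Mean FPKM (n = 3 libraries) in T6 (grey) and R4 (red for members, light for other loci) of the loci of 3 runs and of the loci next to them in the order of IDs, labelled by model length in bp. In the middle and bottom panels the members stand at 16.3 to 276 FPKM in R4 beside 0.26 to 31.8 in T6, and the 725 bp locus that follows is nearly level.

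The T6-low and T6-even sets held another repeated block. The 6 members from Lj1g3v1815380.1 to Lj1g3v1815430.1 and the 3 from Lj1g3v1817720.1 to Lj1g3v1817740.1 share model lengths in 3 pairs, which correlate at 0.989 to 0.999 over the 36 libraries. All 9 rose from R1 to R4 (log2 fold changes from 2.54 to 6.10), 3 rose from R2 to R3, and none was called from R3 to R4. The locus just before the 6 was at 6.88 FPKM in T6 and 9.76 in R4, and the next ID after them at 0.24 and 0.707. Both thus had higher means in R4 than in T6, unlike the loci beside the runs above. Lj2g3v2002260.1 and Lj4g3v1273940.1 (781 bp each, r of 0.999) and Lj4g3v1287330.1 with Lj2g3v2002950.1 (r of 0.9997) are further pairs of like length and profile. These blocks and pairs were singled out after their values were seen.

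In all, 10 runs of neighbouring IDs hold 36 members. Members were linked when neighbours, or when their lengths differed by at most 3 bp and their profiles correlated at 0.98 or more. This left 37 members unlinked and gave 10 groups with the other 42, for 47 units in all. These need not be separate sources, since near copies elsewhere that differ by more than 3 bp in length stay unlinked. Lj0g3v0219089.1 and Lj3g3v1855670.1, for example, had nearly the same course without a link. Of the 37 unlinked members, 35 rose from R1 to R4, 26 from R3 to R4 and 2 from R2 to R3. By these links, the R3 step of the whole set rested mainly on linked loci, and the R4 step did not. The median length was 822 bp over the members, 1115 bp over all loci and 1083 bp over the 16205 loci with at least 5 FPKM in R5. Models under 300 bp made up 25.3% of the members, 11.4% of all loci and 15.2% of the loci with at least 5 FPKM in R5. All 36 estimated counts were whole in 18 members (22.8%), in 26.1% of all loci and in 29.2% of the loci with at least 5 FPKM in R5.

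The members had a wide spread between libraries of 1 day. The median coefficient of variation in R5 was 47.1% over the members and 17.0% over all loci with at least 5 FPKM. In R4 it was 37.8% over the 63 members with at least 5 FPKM and 17.5% over all loci of that level. R5 replicate 2 was the lowest R5 library in 64 of the 79 members and in 29.7% of all loci with at least 5 FPKM there. R4 replicate 1 was the lowest R4 library in 55 members (28 of the 29 T6-low members) and in 39.7% of such loci. The median FPKM of the members was 13.1, 16.7 and 24.1 in the R4 libraries and 20.2, 11.96 and 23.0 in the R5 libraries. The median of each R4 library was above that of every R1 to R3 library, the highest of which was 6.72 in R3 replicate 2. Membership depended on single R5 libraries. Without R5 replicate 1, 56 loci met the rule and 50 of the 79 members were among them. Without R5 replicate 3 it was 67 loci with 60 of the members, and without R5 replicate 2 it was 116 loci with 78 of the members.

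Values near the threshold changed little across it. The members with the lowest ratios were Lj0g3v0061149.1 and Lj0g3v0278459.1, both at 2.02, and the next loci outside were Lj3g3v3776570.1 at 2.00 and Lj5g3v1146300.1 at 1.99. Lj0g3v0061149.1 was at 2.35, 2.08 and 2.55 FPKM in T0, its highest group before withdrawal, and at 2.28, 1.60 and 2.55 in T6. It was at 6.56, 6.21 and 7.51 FPKM in R3 and at 7.36, 3.37 and 6.44 in R5. Lj0g3v0278459.1 was at 2.00, 7.44 and 2.57 FPKM in T2, its highest nitrate day, and at 7.35, 7.02 and 13.0 in R5. Outside the rule, Lj3g3v3776570.1 was at 38.0, 50.8 and 36.6 FPKM in T0 and at 115, 49.1 and 89.3 in R5, and Lj5g3v1146300.1 at 3.04, 3.03 and 4.38 in T6 and at 8.78, 4.24 and 10.7 in R5. In all but Lj0g3v0061149.1, the R5 libraries overlapped with those of the highest group before withdrawal.

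Among loci outside the rule with at least 5 FPKM in R5, the profiles most like the members' median profile over the 12 groups were those of Lj3g3v3530630.2 (Pearson's r of 0.975 on the log2(FPKM + 1) scale) and Lj0g3v0084279.1 (0.972). Lj3g3v3530630.2 was at 33.97, 36.8 and 31.8 FPKM in T0, at 19.3, 15.6 and 17.1 in T4, at 42.6, 66.3 and 67.2 in R4 and at 70.1, 39.6 and 57.4 in R5. It had the valley on day 4 and the late climb with a smaller amplitude, a ratio of 1.61. R4 replicate 1 and R5 replicate 2 were its lowest libraries of those days as well. Lj0g3v0084279.1 moved from 8.94, 8.95 and 8.05 FPKM in T4 to 17.4, 17.0 and 17.3 in R5, a ratio of 1.33 against its highest group before withdrawal.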

How the data were processed

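RNA was extracted with a TransZol Plant kit and libraries were made with a NEBNext Ultra II kit, per the labels. Per the submitters' processing notes, the tools were fastp 0.22.0, HISAT2 and featureCounts. Genome build, annotation, strand setting and the treatment of multiply matching reads: not given in the sources used here. The authors deposited estimated counts and FPKM values of 50526 transcript models in 36 libraries. Of the deposited counts, 49.6% were no whole number within a tolerance of 0.001, so reads can be shared between overlapping models and near-identical copies. A single row without an Lj ID held 0.00595% of the counts.

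The deposited FPKM values chose and describe the members. Model lengths were derived from counts and FPKM. Estimated counts were rounded to whole numbers and compared by edgeR 4.0.16 under R 4.3.3 (TMM, filterByExpr, quasi-likelihood F test, 12 libraries R1 to R4, Benjamini-Hochberg adjustment over 45674 models), after a check on simulated data. The SE is the log2 fold change divided by the square root of F. Alternatives were DESeq2 1.42.0, RLE size factors, no filter, all 36 libraries in 1 fit, a replicate block, adjusted p alone and each library left out. The series speaks of biological replicates without saying whether the plants were separate, so p-values measure the spread between these libraries. Replicate pairs differed by 10.1 to 106 chi-square units per degree of freedom, and no library was treated as a duplicate. The largest values were 106 and 87.3 for R4 replicate 1 against replicates 2 and 3, and 84.5 for R5 replicate 1 against replicate 2.

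The members and lists were chosen with earlier results of these data known. Gene lists and markers could not be used, because no ID was paired with a name. IDs named are those with the 2 highest ratios, the 2 highest R5 levels, the values nearest the threshold, the 2 largest called changes per direction and comparison (at least 10 CPM in the higher group, no overlap of libraries), the 2 highest R1 ratios, the extreme T6 to T0 ratios (at least 5 FPKM in either) and the 2 nearest profiles. Others are said to be named after their values were seen.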

Additional observations from a re-analysis of the deposited data

How the results depend on the processing

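Of 56 alternative values of the member count and the counts of calls, 49 stayed within 1.5 times the reported count, and every other one left out a library. Leaving out 1 library gave 5 to 11 calls for R2 vs R1 (14 reported), 7 to 25 for R3 vs R2 (28), 28 to 38 for R4 vs R3 (35) and 71 to 76 for R4 vs R1 (75). Such fits hold fewer libraries, and no other cause was tested. Without R4 replicate 2, Lj4g3v1259070.1 was called lower in R4 than in R3. DESeq2 called 18, 36, 35 and 75 members in that order of comparisons, and all 36 libraries in 1 fit gave 15, 30, 34 and 75. With the replicate number as a block the counts were 14, 26, 33 and 75. Over R1 to R4, deviations of libraries with the same number correlated between groups at -0.05 to 0.14. Such low values cannot decide whether same-numbered libraries share plants or a batch, which the labels used here do not state. The rule gave 84 members with a pseudocount of 0.5 and 60 with 2, 66 after scaling FPKM by TMM factors (65 of them among the 79), 92 with a minimum of 1 FPKM, 71 by group medians, and 56 to 116 without 1 R5 library. For the members named by test, 92 of 110 alternatives kept the call, 18 lost it, each by leaving out a library, and none changed sign. IDs that share reads limit which locus a value belongs to.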
